A study of Mus musculus with 8 samples.

Results

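Interferon-stimulated genes and interferon-induced GTPases were followed in the duodenum of mice that lack IκBα in the gut epithelium. The group holds 43 genes, picked by symbol: transcription factors that carry the interferon signal, sensors of viral nucleic acid, antiviral effectors, the ISG15 and ADP-ribose regulators, the guanylate-binding proteins (GBPs) and the immunity-related GTPases (IRGs). A probe set was found for 38 of the 43, among 22206 probe sets in all. Ifi44, Gbp5, Gbp6, Ifi47 and Tgtp1 were matched to no probe set and have no value here. For description the members form 2 classes: 29 genes known best as targets of type I interferon (28 measured) and 13 GTPases known best as targets of interferon-gamma (9 measured), while Irf1 belongs to neither.

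Type I and type III interferons signal through Jak kinases to a transcription factor complex, called ISGF3, that contains Stat2 and Irf9 and binds the interferon-stimulated response element (ISRE) in front of its target genes. Genes that respond to interferon-gamma often carry a gamma-activated site (GAS), and Irf1 made in response carries the signal on to ISRE-like sites. In the intestine, epithelial cells answer mainly to type III interferon and to interferon-gamma, and the GTPases protect them against microbes inside the cell. IκBα, the product of Nfkbia, holds NF-κB in the cytoplasm.

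The study measured RNA from 8 untreated mice on Clariom S arrays, which carry mostly 1 probe set per gene. The 4 knockout mice (KO) carried Villin-Cre and a floxed IκBα allele, from which Cre deletes the promoter with the first 2 exons wherever villin is made, that is, in the gut epithelium. Each was paired with a wild-type littermate (WT), and the sources used here do not say whether those littermates carried the floxed allele or Cre. Pair 1 was male and male at 8 weeks, pair 2 female and female at 11 weeks, pair 3 a male KO with a female WT at 8 weeks, and pair 4 a female KO with a male WT at 9 weeks. The design names frozen whole duodenum and the sample labels small intestine, so the RNA came from all cells of the wall, and fewer cells of a type cannot be told apart from less RNA per cell.

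Values are log2 expression as the authors deposited them, and "difference" below means KO minus WT within a pair, on the log2 scale. Nfkbia was lower in all 4 pairs, by differences of −2.93, −3.26, −1.29 and −3.13. The difference in pair 3 was thus the smallest. The epithelial markers Epcam, Cdh1 and Vil1 had means between 12.32 and 13.12 in both groups. Each was lower in the KO of all 4 pairs, by mean differences of −0.20, −0.15 and −0.34. Of 13 epithelial markers measured, 5 were lower and 5 higher in all 4 pairs. Their summed linear level differed by −0.05, −0.12, −0.13 and −0.17 on the log2 scale. The means of the 4 pairs were almost equal for most probe sets (median SD 0.0175, against 0.179 for the differences), so most of each pair's mean had been removed before deposit. A value is therefore read against its own sibling, levels are not compared between pairs, and groups that do not overlap are more frequent than in untouched data. Array medians lay between 6.77 and 6.81, and every measured member had a mean above the level that 95% of 1091 olfactory receptor probe sets stay under (5.65).

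Most of the interferon-stimulated genes were higher in the KO than in the WT sibling. Of the 38 measured members, 35 had a mean difference above 0. In all 4 pairs 20 were higher, beside 3667 of all 22206 probe sets. Only Cmpk2 was lower in all 4, beside 3970 of all probe sets. In limma's fit with the sibling pair as a block, over all probe sets and with Benjamini-Hochberg adjustment, 9 members rose at an adjusted p under 0.05 and 0 fell (called, below). The 9 were Stat2, Dhx58, Ifit1, Ifit2, Oas2, Oasl2, Parp14, Dtx3l and Xaf1. Over all 22206 probe sets the same rule called 3.16% higher and 2.7% lower. At an unadjusted p under 0.05 there were 25 members, of which 24 were higher and 1, Cmpk2, lower, beside 13.2% of all probe sets higher and 14.2% lower at that p.

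The member median difference was 0.345 over the 4 pairs, beside −0.015 for all probe sets. By pair it was 0.63, 0.53, 0.17 and 0.13. The count of members above 0 was 36, 35, 28 and 24 of 38, beside 47% to 47.9% of all probe sets. Pairs 1 and 2 thus carried the larger part of the increase. Centring each array on housekeeping genes moved the median of all probe sets to −0.18 and the member median to 0.18, with 30 members above 0 on average and 14 in all 4 pairs. The 10 housekeeping genes themselves had a median difference of 0.20 as deposited, and 7 of them were higher in all 4 pairs. Ifih1, Adar, Irf1, Usp18 and Gbp3 changed sign under that scaling, Ifih1 also under quantile normalization and centring on epithelial genes, and no other member did. Over all probe sets the share of called genes that were higher was 54.0% as deposited, 8.98% after housekeeping and 35.2% after epithelial centring.

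**Figure D1:**
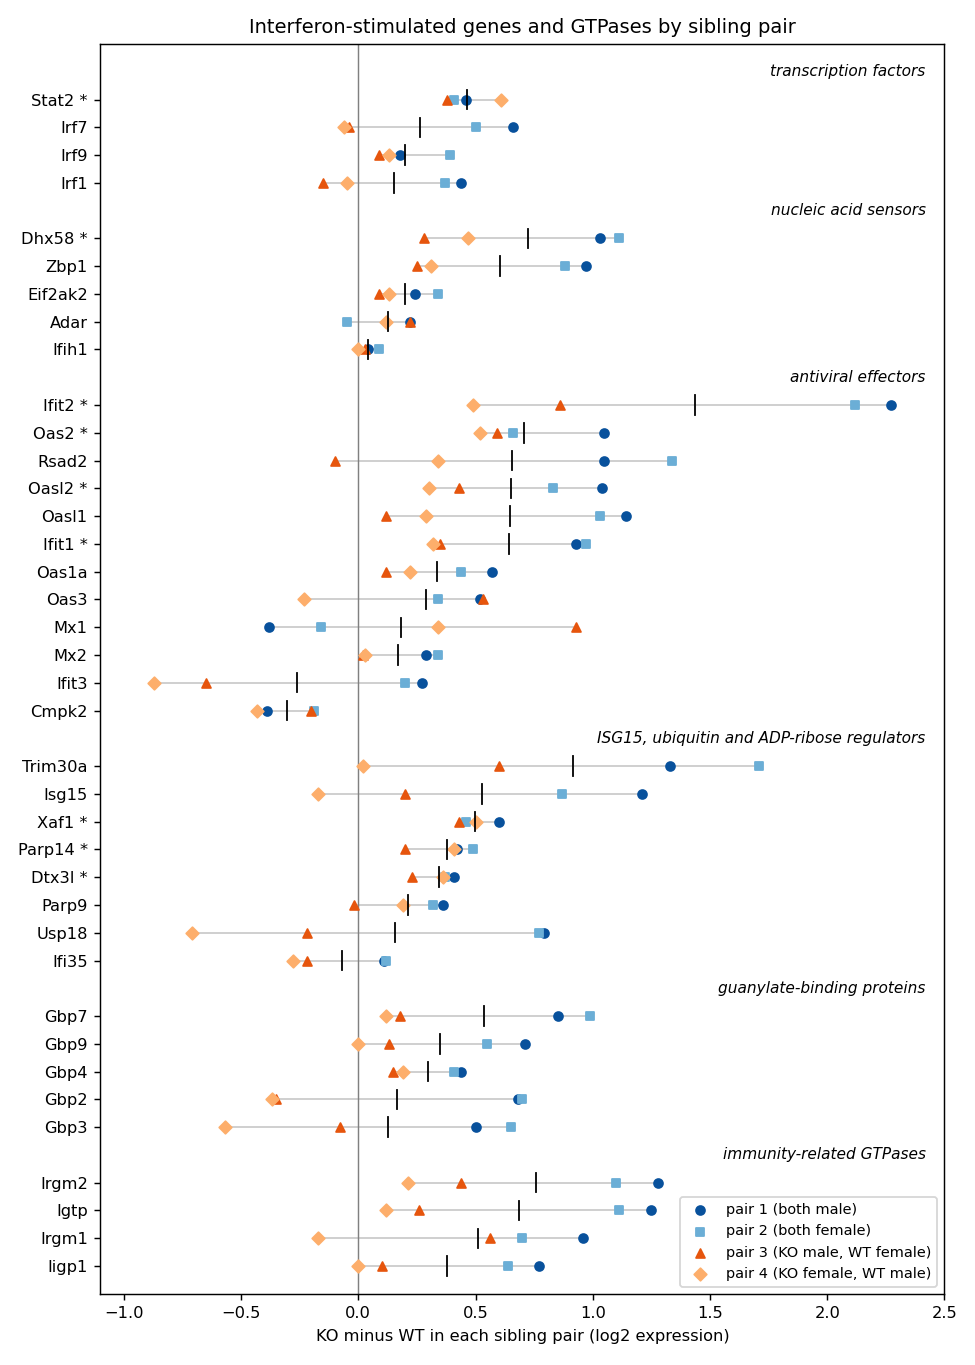
Each line is 1 measured member, grouped by role; the x axis is the KO minus WT difference in log2 expression, each point 1 sibling pair, the black tick the mean of the 4 pairs, and a star marks an adjusted p under 0.05. The blue points of pairs 1 and 2 lie to the right of the orange points of pairs 3 and 4 for 32 of the 38 members, with the order turned for Mx1 alone, while Stat2, Xaf1, Dtx3l and Parp14 have all 4 points close together.

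The calls rest on 4 pairs and few degrees of freedom. Without any 1 pair the count of called members was 0 to 1 (Dhx58, without pair 3). An unadjusted p under 0.05 was then found for 16 to 25 members, beside 4397 to 5149 of all 22206 probe sets. A fit with sex as a further term called 1 member (Xaf1, 21 at an unadjusted p under 0.05), and one with the RNA integrity number called 0 (20 unadjusted). Over all probe sets those 2 fits had 5342 and 5309 under that p.

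The DNA in front of 5 members is shown because it was searched for the elements through which interferons act. RefSeq windows of 250 bases before to 50 bases after an annotated start (build GRCm38.p6) exist in the table used here for 31 of the 43 members. The ISRE core was searched as GAAANNGAAA and the GAS core as TTCNNNGAA, both on either strand, and a gene counts where any of its windows holds a match. In the sequences below, read 5′ to 3′ along the gene, ISRE matches are in capitals.
Stat2 (chr10:128270248-128270547, plus strand): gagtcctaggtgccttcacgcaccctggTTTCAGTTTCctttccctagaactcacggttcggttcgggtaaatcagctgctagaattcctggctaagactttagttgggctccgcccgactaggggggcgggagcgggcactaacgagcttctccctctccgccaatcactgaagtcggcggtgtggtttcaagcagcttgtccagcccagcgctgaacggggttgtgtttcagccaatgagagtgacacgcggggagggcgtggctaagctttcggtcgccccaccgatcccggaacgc
Ifit1 (chr19:34640639-34640938, plus strand): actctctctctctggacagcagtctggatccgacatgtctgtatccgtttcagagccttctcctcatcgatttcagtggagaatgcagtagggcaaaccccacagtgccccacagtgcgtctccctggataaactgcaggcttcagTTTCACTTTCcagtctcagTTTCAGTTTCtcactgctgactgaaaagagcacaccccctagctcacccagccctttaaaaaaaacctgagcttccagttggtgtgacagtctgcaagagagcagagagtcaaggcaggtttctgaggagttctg
Xaf1 (chr11:72301379-72301678, plus strand): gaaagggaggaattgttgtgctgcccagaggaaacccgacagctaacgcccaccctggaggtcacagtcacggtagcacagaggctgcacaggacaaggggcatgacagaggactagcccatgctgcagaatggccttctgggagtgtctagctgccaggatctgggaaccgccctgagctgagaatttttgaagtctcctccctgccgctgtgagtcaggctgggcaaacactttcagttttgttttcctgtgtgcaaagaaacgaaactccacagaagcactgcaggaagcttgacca
Irgm2 (chr11:58214727-58215026, plus strand): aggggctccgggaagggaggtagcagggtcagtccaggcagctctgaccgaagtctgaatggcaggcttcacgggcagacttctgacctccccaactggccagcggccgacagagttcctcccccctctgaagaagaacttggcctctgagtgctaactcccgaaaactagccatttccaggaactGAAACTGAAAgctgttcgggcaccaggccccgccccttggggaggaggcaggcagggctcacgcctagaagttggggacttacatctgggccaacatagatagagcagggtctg
Igtp (chr11:58199306-58199605, plus strand): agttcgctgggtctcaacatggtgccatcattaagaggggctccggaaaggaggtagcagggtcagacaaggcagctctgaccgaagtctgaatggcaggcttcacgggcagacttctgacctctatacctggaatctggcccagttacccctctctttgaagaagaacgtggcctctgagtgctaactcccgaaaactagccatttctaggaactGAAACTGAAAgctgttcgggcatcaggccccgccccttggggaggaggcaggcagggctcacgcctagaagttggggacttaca

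Ifit1 has 2 ISRE matches in the reverse sense, beginning 104 and 85 bases before the start, and Stat2 has 1, beginning 222 bases before it. Xaf1, the called member with the smallest p, has no match in this window. The neighbouring genes Irgm2 and Igtp have closely alike windows: each holds the same ISRE letters, preceded by a GAS match whose first base lies 11 bases upstream, ttccaggaa in Irgm2 and ttctaggaa in Igtp. In neither gene do the 2 matches share a base. Tgtp1, an IRG with no value here, has the same spacing, which was looked for after these windows were seen, and 5 of 27025 genes with a window show it, of which 3 are these members. A match is a description of the letters and not a measured binding site.

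Over the members, 18 of 31 (58.1%) held an ISRE match, beside 3.99% of all 27025 genes with a window. It was found for 8 of 9 GTPases with a window (88.9%) and 10 of 21 type I genes (47.6%), and for 2 of the 6 called members with a window, Stat2 and Ifit1. GAS matches occurred in 11 of 31 members (35.5%, beside 9.55% of all genes) and in 5 of 9 GTPases (55.6%). Matches to the kappa-B consensus, which NF-κB binds, occurred in 6 of 31 members (19.4%, beside 9.55%): Gbp2, Gbp5, Ifit2, Irf1, Oas3 and Oasl1. Binding at these elements was not measured.

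Among the transcription factors, Stat2 rose and the other 3 did not pass the test. Stat2, the subunit of ISGF3 that activates transcription, read 9.80, 9.78, 9.74 and 9.88 in the KO samples of pairs 1 to 4 and 9.34, 9.37, 9.36 and 9.27 in the WT siblings. All 4 KO values lay above all 4 WT values, and the increase was of like size in each pair. Its mean difference was 0.47 (SD 0.10, n = 4 pairs), a 1.38-fold level, with an adjusted p of 0.0254.

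Irf7, the factor that amplifies type I interferon production, read 11.12, 11.04, 10.74 and 10.73 in the KO and 10.46, 10.54, 10.78 and 10.79 in the WT. It was higher in the KO of pairs 1 and 2 and level within 0.06 in pairs 3 and 4, so the groups overlap. Irf1, which carries the interferon-gamma signal, had the same shape, with differences of 0.44, 0.37, −0.15 and −0.05. Irf9, the DNA-binding subunit of ISGF3, was higher by 0.09 to 0.39 in all 4 pairs with an adjusted p of 0.172.

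Of the 5 sensors of nucleic acid, Dhx58 rose. Dhx58 encodes LGP2, a helicase that modulates the RIG-I-like receptors. Its KO values were 7.97, 8.02, 7.63 and 7.76 and its WT values 6.94, 6.91, 7.35 and 7.29. The KO samples were all above the WT samples, with the wider gaps in pairs 1 and 2. The mean difference was 0.72 (SD 0.41, n = 4; 1.65-fold), adjusted p 0.0465.

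Zbp1, a sensor of Z-form nucleic acid that can start necroptosis, read 9.90, 9.85, 9.54 and 9.57 in the KO against 8.93, 8.97, 9.29 and 9.26 in the WT. The groups did not overlap, yet the mean difference of 0.60 (SD 0.38) had an adjusted p of 0.0592. Eif2ak2, the RNA-dependent kinase PKR, differed by 0.09 to 0.34 in the 4 pairs, and Adar, which edits double-stranded RNA, by −0.05 to 0.22. Ifih1, the RNA sensor MDA5, differed least of all members, by 0.00 to 0.09.

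Of the 12 antiviral effectors measured, 4 rose: Ifit1, Ifit2, Oas2 and Oasl2. The Ifit proteins bind foreign RNA and block its translation. Ifit2 read 7.98, 7.90, 7.10 and 6.96 in the KO and 5.71, 5.78, 6.24 and 6.47 in the WT. Every KO sample was above every WT sample, and the gap in pairs 1 and 2 was more than that in pairs 3 and 4. The mean difference was 1.44 (SD 0.89, n = 4; 2.70-fold), the largest of the 38 members, with an adjusted p of 0.0481.

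Ifit1 read 9.95, 9.96, 9.69 and 9.69 in the KO against 9.02, 8.99, 9.34 and 9.37 in the WT. Again no KO value reached down to a WT value, and the mean difference was 0.64 (SD 0.36; 1.56-fold), adjusted p 0.0472. Ifit3 went the other way in pairs 3 and 4: its differences were 0.27, 0.20, −0.65 and −0.87, although it lies next to Ifit2 on chromosome 19. Its near-identical copy Ifit3b had differences of 0.19, −0.02, −0.59 and −0.83, and probe sets of such copies may share signal.

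The Oas enzymes make 2-5A, the messenger that switches on RNase L. Oas2 read 7.13, 6.94, 6.89 and 6.85 in the KO and 6.08, 6.28, 6.30 and 6.33 in the WT. It was higher in each KO by more than 0.5, and the groups did not overlap. The mean difference was 0.71 (SD 0.24; 1.63-fold) with an adjusted p of 0.0210. Oas3, its neighbour on chromosome 5, was higher by 0.52, 0.34 and 0.53 in pairs 1 to 3 and differed by −0.23 in pair 4. Oas1a, one of several close copies, was higher by 0.12 to 0.57 in all 4 pairs.

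The Oas-like gene Oasl2 read 11.50, 11.41, 11.20 and 11.15 in the KO and 10.46, 10.58, 10.77 and 10.85 in the WT. The samples of the KO were all the higher ones, with a mean difference of 0.65 (SD 0.34; 1.57-fold) and an adjusted p of 0.0438. Its neighbour Oasl1, a brake on Irf7 translation, had a like mean of 0.65 but a wider spread (differences 1.14, 1.03, 0.12 and 0.29) and an adjusted p of 0.0875.

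Rsad2 and Cmpk2 lie side by side on chromosome 12 and encode viperin and a nucleotide kinase that supplies it. Rsad2 was higher by 1.05 and 1.34 in pairs 1 and 2 and differed by −0.10 and 0.34 in pairs 3 and 4 (adjusted p 0.132). Cmpk2 had differences of −0.39, −0.19, −0.20 and −0.43 (adjusted p 0.0705). The neighbours thus had opposite signs in pairs 1, 2 and 4. Mx1, an antiviral dynamin-like GTPase that is disrupted in many laboratory strains, was the sole member whose differences in pairs 1 and 2 (−0.38 and −0.16) both lay below those in pairs 3 and 4 (0.93 and 0.34). Mx2 was higher by 0.02 to 0.34.

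Of the 8 regulators built around ISG15, ubiquitin and ADP-ribose, Parp14, Dtx3l and Xaf1 rose. Xaf1, an interferon-induced promoter of apoptosis, read 10.10, 10.01, 10.02 and 10.08 in the KO and 9.50, 9.55, 9.59 and 9.58 in the WT. It had the smallest spread among pairs of the 9 called members, with a gap of 0.43 to 0.60 in every pair. The mean difference was 0.50 (SD 0.07; 1.41-fold), adjusted p 0.0199.

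Parp14, Dtx3l and Parp9 stand in a row on chromosome 16 and encode 2 ADP-ribosyltransferase family proteins and the ubiquitin ligase that pairs with Parp9. Parp14 read 9.62, 9.66, 9.45 and 9.60 in the KO and 9.20, 9.17, 9.25 and 9.19 in the WT. Dtx3l read 10.20, 10.19, 10.08 and 10.16 in the KO and 9.79, 9.82, 9.85 and 9.80 in the WT. For both genes the groups did not overlap, and pair 3 had the smallest gap. The mean differences were 0.38 (SD 0.13; 1.30-fold, adjusted p 0.0443) for Parp14 and 0.34 (SD 0.08; 1.27-fold, adjusted p 0.0448) for Dtx3l. Parp9 differed by 0.36, 0.32, −0.02 and 0.19 (adjusted p 0.178).

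Trim30a, a ubiquitin ligase that dampens NF-κB signalling, read 8.31, 8.48, 7.98 and 7.66 in the KO and 6.98, 6.77, 7.38 and 7.64 in the WT. The groups stood just apart, and the difference ran from 1.71 in pair 2 down to 0.02 in pair 4, with an adjusted p of 0.0869. Isg15, the ubiquitin-like protein that is joined to targets in interferon-treated cells, read 7.59, 7.42, 7.10 and 6.91 in the KO and 6.38, 6.55, 6.90 and 7.08 in the WT. It was higher in pairs 1 to 3 and lower in pair 4, so the groups overlap (adjusted p 0.182). Usp18, which removes ISG15 and blocks the type I receptor, had differences of 0.79, 0.77, −0.22 and −0.71. Ifi35 had the same shape at a smaller size (0.11, 0.12, −0.22 and −0.28).

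**Figure D2:**
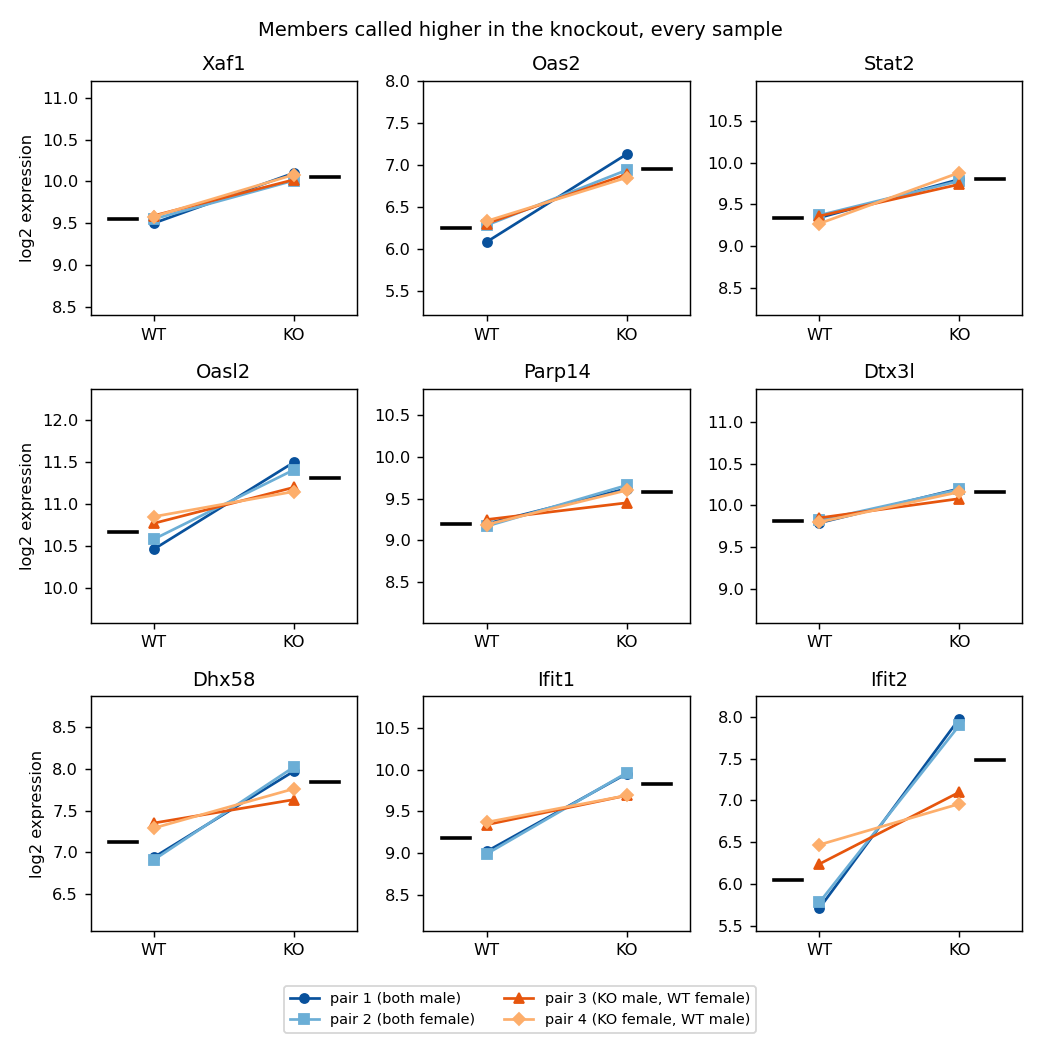
Log2 expression of the 9 called members in every sample, WT on the left and KO on the right of each panel, with a line for each sibling pair and black bars for the group means; every panel spans the same range of the y axis. All lines rise; those of Xaf1, Stat2, Parp14 and Dtx3l run nearly parallel, while in Ifit2, Ifit1, Dhx58 and Oasl2 the blue lines of pairs 1 and 2 are steeper.

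None of the 9 measured GTPases passed the test in limma, and 7 of them had an unadjusted p under 0.05, all higher in the KO. The GBPs coat vacuoles and bacteria in the cytoplasm, and 5 of 7 were measured. Gbp7 read 9.52, 9.60, 9.12 and 9.11 in the KO and 8.67, 8.61, 8.94 and 8.99 in the WT. The KO values were all higher than the WT values, by a mean of 0.54 (SD 0.45; adjusted p 0.101). Gbp9 read 7.47, 7.39, 7.12 and 7.07 in the KO and 6.76, 6.84, 6.99 and 7.07 in the WT. It was level between the siblings of pair 4, where the groups touch (mean 0.35, SD 0.34; adjusted p 0.151).

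Gbp4 had the narrowest spread of the GBPs, with differences of 0.44, 0.41, 0.15 and 0.19 (adjusted p 0.0824). Gbp2 and Gbp3, both on chromosome 3, were higher in the KO of pairs 1 and 2 and lower in pairs 3 and 4. Their differences were 0.68, 0.70, −0.35 and −0.37 for Gbp2 and 0.50, 0.65, −0.08 and −0.57 for Gbp3.

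The IRGs act with the GBPs on membranes around microbes, with Irgm1, Irgm2 and Igtp (Irgm3) as regulators and Iigp1 (Irga6) as an effector. Irgm2 read 9.99, 9.89, 9.51 and 9.40 in the KO and 8.71, 8.79, 9.07 and 9.19 in the WT. Igtp, next to it, read 9.37, 9.28, 8.86 and 8.78 in the KO and 8.12, 8.17, 8.60 and 8.66 in the WT. The neighbours moved alike, each KO above each WT, with the gap falling from over 1 in pairs 1 and 2 to 0.44 or less in pairs 3 and 4. The means were 0.76 (SD 0.51; adjusted p 0.0627) and 0.69 (SD 0.58; adjusted p 0.0949). Irgm1 differed by 0.96, 0.70, 0.56 and −0.17, and Iigp1 by 0.77, 0.64, 0.10 and 0.00. Tgtp2, a close copy of the unmeasured Tgtp1, had differences of 1.50, 1.31, 0.47 and −0.19.

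The type I interferon genes and the GTPases did not differ beyond the spread between pairs. The class medians by pair were 0.55, 0.45, 0.20 and 0.21 for the 28 type I genes and 0.77, 0.70, 0.15 and 0.00 for the 9 GTPases. Type I minus GTPase gave −0.23, −0.25, 0.05 and 0.21, with a mean of −0.06 (SD 0.22, n = 4). The GTPases had the higher median in pairs 1 and 2 and the lower one in pairs 3 and 4. The GTPases also varied more between pairs: the median over genes of the SD of the 4 differences was 0.48 for them, 0.29 for the type I genes and 0.18 for all probe sets. All 9 calls were type I genes (9 of 28), a split for which no test was made, since the members were chosen with results of these data known.

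**Figure D3:**
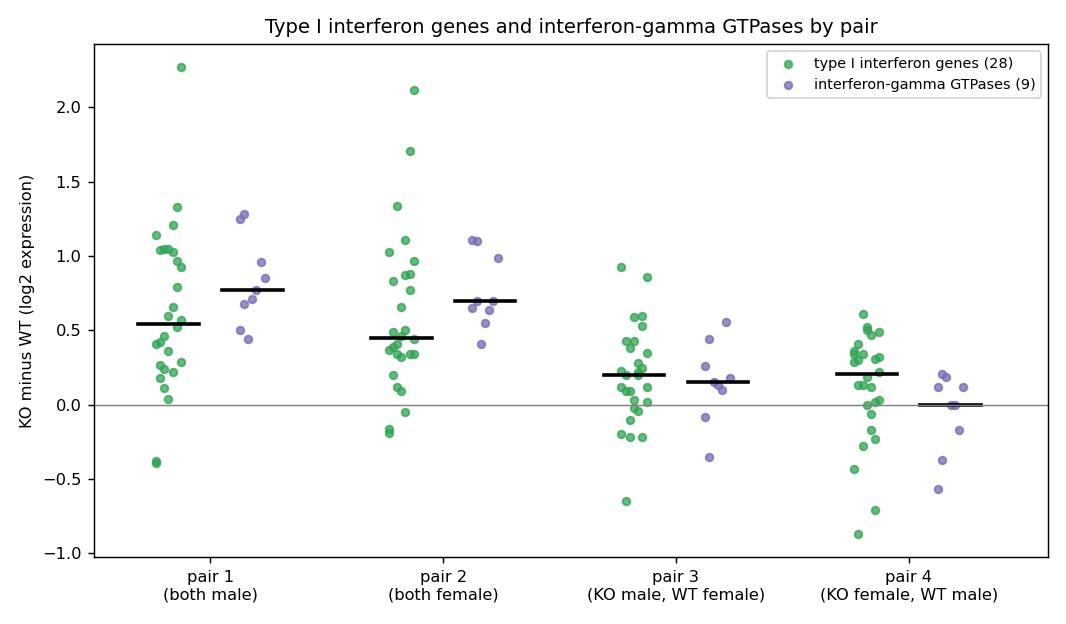
KO minus WT difference in log2 expression (y axis) of each type I interferon gene (green, 28) and interferon-gamma GTPase (purple, 9) in each sibling pair, with a black bar at the class median. The purple medians lie above the green in pairs 1 and 2 (0.77 and 0.70 against 0.55 and 0.45) and at or below them in pairs 3 and 4.

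Across members, 19 of 38 had all 4 KO values above all 4 WT values, beside 15.9% of all probe sets. In 32 of 38 (22 of 28 type I genes and 9 of 9 GTPases), both differences of pairs 1 and 2 lay above both of pairs 3 and 4, beside 21.5% of all probe sets. The median member difference was 0.58 as a mean of pairs 1 and 2 and 0.16 as a mean of pairs 3 and 4. For the GTPases these medians were 0.71 and 0.15, for the type I genes 0.48 and 0.17, and for the 9 called members 0.86 and 0.38.

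A limma term for the difference between the pair types called Ifit2 (1.52 larger in pairs 1 and 2, adjusted p 0.0472) and Gbp2 (1.05, adjusted p 0.0483), beside 0.414% of all probe sets called in that direction. With any 1 pair left out 0 members were called, and 19 to 23 had an unadjusted p under 0.05, beside 1892 to 2467 of all 22206 probe sets. The next smallest adjusted p-values were 0.0649 for Igtp and 0.0702 for Ifit3, and 23 members had an unadjusted p under 0.05. Stat2, Xaf1, Dtx3l, Parp14 and Cmpk2 differed by −0.06 to 0.15 between the pair types. The split was proposed with these results known, so its p-values are no independent evidence. By label it is also same-sex against mixed-sex siblings, and pair type cannot be told apart from anything else that set these animals apart.

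**Figure D4:**
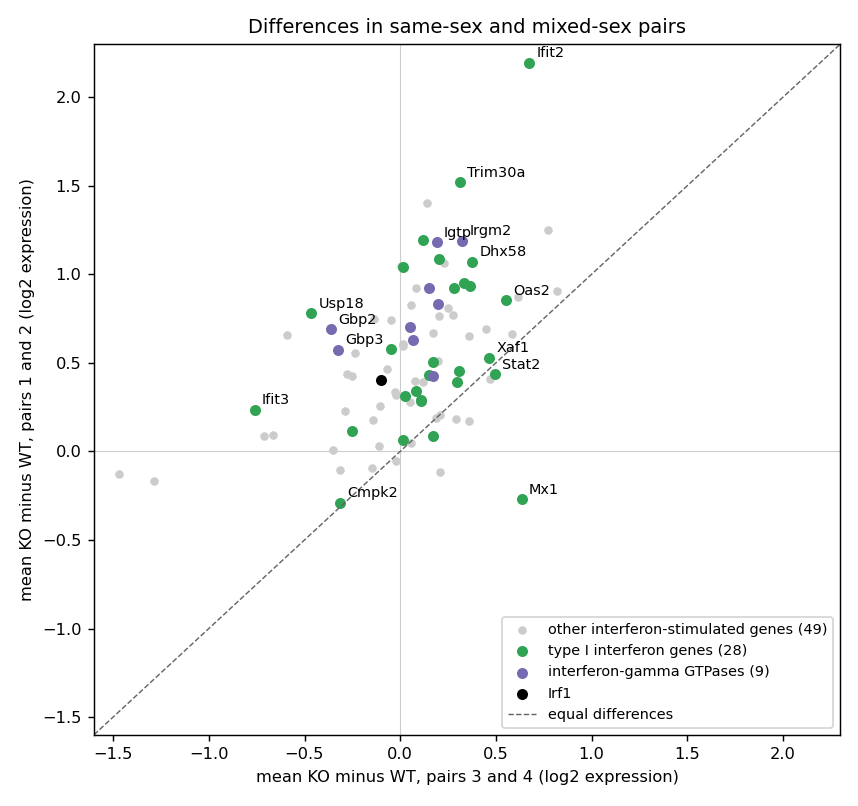
Mean KO minus WT difference in log2 expression over pairs 1 and 2 (y axis) against that over pairs 3 and 4 (x axis), with type I genes in green, GTPases in purple, Irf1 in black, other interferon-stimulated genes in grey and a dashed line of equal differences. Most members lie above the line; Stat2, Xaf1 and Cmpk2 lie near it, Mx1 lies below it, and Usp18, Gbp2, Gbp3 and Ifit3 lie at the upper left, with opposite signs in the 2 pair types.

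Summed over markers, some other cell types had a like split between the pairs, and others did not. The summed linear level of 9 measured adipocyte markers (of 10, with Lep under the olfactory level) differed by 2.46, 2.31, 0.06 and −0.15 on the log2 scale, from 11.1 to 12.6 in the KO and 10.1 to 11.2 in the WT. That of 7 pancreatic acinar markers (of 8) differed by −0.48, 0.85, −3.95 and −3.42 (KO 9.55 to 11.6, WT 10.7 to 13.5). For 7 smooth muscle markers the sum differed by 0.21, 0.01, −0.54 and −0.67, and that for 7 B and plasma cell markers (of 8, Pax5 under the level) by 0.34, 0.41, −0.04 and −0.01. The sum for T and NK cell markers (13 of 15, Ncr1 and Klrk1 under the level) did not follow the split (−0.15, −0.40, −0.02 and −0.98). Nor did the sum for macrophages and dendritic cells (13 of 14, Clec9a under the level), with −0.06, −0.38, 0.04 and −0.72. The same held for 7 neutrophil markers (of 8, S100a8, S100a9, Retnlg and Cxcr2 under the level; −0.06, −0.21, 0.04 and −0.10) and for 6 endothelial markers (Tek under the level; 0.25, 0.33, 0.37 and 0.10). Such sums are led by the genes with the highest levels, and single markers varied. Lyz2, the highest of the macrophage and dendritic cell list, differed by −0.35, −0.82, 0.16 and −0.98. The median over that list's markers was 0.36, 0.12, −0.03 and −0.29, with 11, 9, 6 and 4 of 13 above 0. For T and NK cell markers the median was 0, −0.13, −0.24 and −0.77. Both differences of pairs 1 and 2 lay above those of pairs 3 and 4 for 6 of 13 macrophage and dendritic cell markers. The same was true of 5 of 13 T and NK cell markers, beside 21.5% of all probe sets. In the reverse order was 1 gene of each list, beside 5020 of all 22206 probe sets. Mrc1 (1.09, 0.93, −0.32 and −0.29) was called by the limma term for pair type (adjusted p 0.0307). The part of these cells in the members' differences was not tested.

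Upstream of the members, no interferon gene, receptor or kinase passed the test. The list of ligands had 0 of 18 called in limma and a median difference of −0.10. At an unadjusted p under 0.05 there were 6, of which 5 were lower. Of all probe sets 27.5% passed that p, 13.2% higher and 14.2% lower. In all 4 pairs 7 ligands were lower and 2 higher, beside 3970 and 3667 of all 22206 probe sets. Ifnb1 had differences of −0.07, −0.44, −0.08 and −0.11, and Ifng −0.21, −0.21, −0.15 and 0.25. The type III genes Ifnl2 and Ifnl3 differed by −0.14 to −0.02 and by −0.19 to 0.18. Means of the ligands over all samples ran from 3.59 to 7.51, in part below the olfactory level, so small amounts of ligand RNA would not be seen.

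Of 6 receptor genes 0 were called, with 1 at an unadjusted p under 0.05. That gene was Ifnar1, a subunit of the type I receptor, with differences of 0.20, 0.22, 0.29 and 0.34 (adjusted p 0.0740). Ifngr1 differed by −0.01 to 0.11 and the type III receptor gene Ifnlr1 by −0.24 to 0.32. Ifnar2, named after its values were seen, differed by 0.53, 0.83, −0.11 and −0.20. None of 4 measured kinase and Stat genes was called, and none had an unadjusted p under 0.05. Of 15 genes that induce interferon, such as Mavs, Sting1 and Tbk1, 0 were called and 3 had an unadjusted p under 0.05. Tlr7 of this list, also named after its values were seen, differed by 1.10, 0.78, −0.86 and −0.65. The limma term for pair type called it (1.695, adjusted p 0.0307). In this list 5 genes had both differences of pairs 1 and 2 above those of pairs 3 and 4, beside 21.5% of all probe sets. The reverse order was found for 3, beside 5020 of all 22206 probe sets.

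Among 7 negative regulators, Socs1 and Irf2bp2 rose. Socs1, the feedback inhibitor of Jak kinases, had differences of 0.56, 0.35, 0.57 and 0.32, a mean of 0.45 (SD 0.13; 1.37-fold) and an adjusted p of 0.0321. Irf2bp2, a corepressor partner of Irf2, had a mean of 0.32 (SD 0.07; adjusted p 0.0494). Like Stat2 and Xaf1, both were higher in 4 of 4 pairs, and their differences in pairs 1 and 2 exceeded those in pairs 3 and 4 by 0.01 and 0.005. Socs3, a related inhibitor named here after its values were seen, was not called (adjusted p 0.127) and had the larger differences in pairs 3 and 4 (0.15, 0.07, 1.19 and 0.86).

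**Figure D5:**
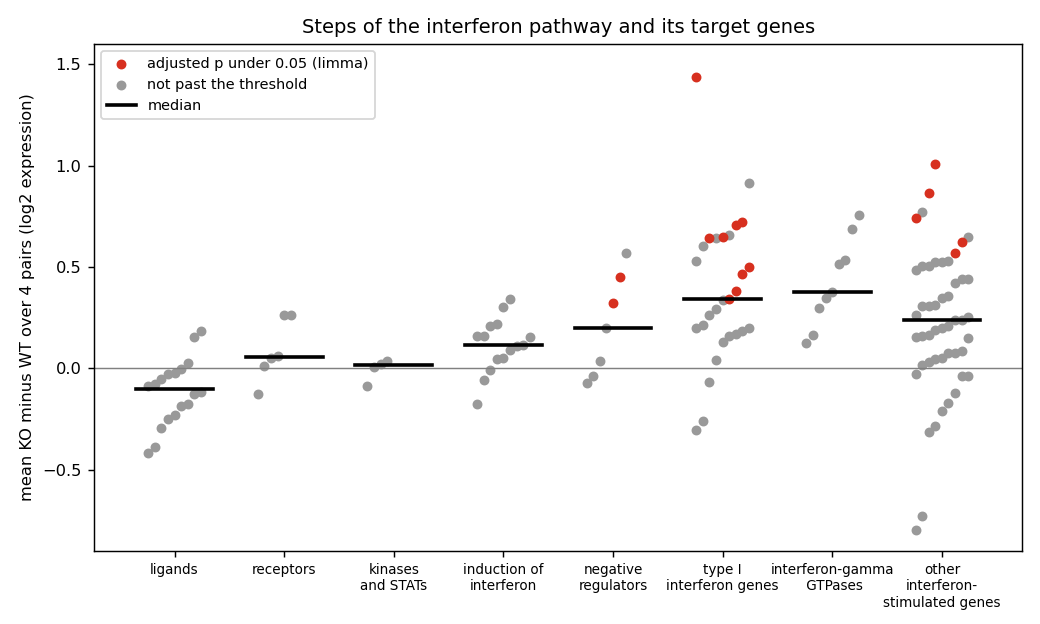
Mean KO minus WT difference in log2 expression over 4 pairs (y axis) for each gene of the interferon pathway lists, the 2 member classes and other interferon-stimulated genes, with red points at an adjusted p under 0.05 and black bars at list medians. The medians run from −0.10 for the ligands through 0.06 and 0.02 for receptors and kinases to 0.34 and 0.38 for the type I genes and the GTPases.

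A further list of 56 interferon-stimulated genes, 49 of them measured, had 5 called higher and 0 lower, beside 3.16% and 2.7% of all probe sets. Its median difference was 0.24. The 5 were Ifit1bl1 (1.01), a relative of Ifit1, the virion tether Bst2 (0.86), Slfn5 (0.74), Lgals3bp (0.62) and Lgals9 (0.57). Each was higher in 4 of 4 pairs. In all 4 pairs 20 genes of the list were higher and 4 lower, beside 3667 and 3970 of all 22206 probe sets. None of the 4 passed the test. Among them were, named after their values were seen, Apol9a (mean −0.80, adjusted p 0.127) and Apol9b (−0.73, adjusted p 0.117). By pair the list medians were 0.56, 0.37, 0.03 and 0.04. Both differences of pairs 1 and 2 lay above those of pairs 3 and 4 in 36 of 49 genes, beside 21.5% of all probe sets. The list was also compiled with earlier results in view.

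The 6 named genes outside the members whose 4 differences lay closest to the member medians were Lox, Cry1, Ly9, Zdhhc1, Tpst1 and Samd14, among 4202 genes with a mean absolute difference of at least 0.3. Their mean distance from the member medians was 0.034 to 0.041, and none of them was in the other interferon list or was called.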

How the data were processed

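The deposited values are log2 expression per probe set. Per the submitters' processing notes, RMA and Transcriptome Analysis Console 4.0 were used; the sources used here give no further settings. Probe sets were named through GEO's platform annotation, where 19572 of 22206 have 1 gene symbol and 2634 have several or none, and a gene with several probe sets was read from the one with the highest mean. Differences were fitted in R 4.3.3 with limma 3.58.1 (lmFit and eBayes), with the sibling pair as a block, and Benjamini-Hochberg adjustment over all 22206 probe sets at a threshold of 0.05. That left 3 residual degrees of freedom, 6.63 with those from the variance prior. The labels number the sibling pairs, and siblings' deviations from their group means correlated at −0.913 to −0.87, which the removal of pair means gives. No source used here names that step. A second fit added the pair type as an interaction with genotype. The fits were tested on simulated data.

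The members and lists were chosen with earlier results of these data known. Values per sample are given for called members and for the 2 largest mean differences of each role group. Promoters shown are from called members and, of the GTPases with a promoter window, those with the smallest p. The choice among called members did not follow p. Oasl2, Dtx3l and Ifit2, called members whose windows hold no ISRE match, are not shown. The number of arrays (8) limits the precision, and p-values measure the spread between these 4 pairs.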

Additional observations from a re-analysis of the deposited data

Results flagged for a closer look

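Some genes differed between pairs 1 and 2 and pairs 3 and 4. Among the members, the test of that difference, limma's interaction of genotype and pair type, called Ifit2 (1.52) and Gbp2 (1.05). In 6 further members the KO was higher in both of pairs 1 and 2 and lower in both of pairs 3 and 4, while the test did not pass its threshold: Usp18 (1.245, adjusted p 0.0835), Ifit3 (0.995, adjusted p 0.0702), Gbp3 (0.90, adjusted p 0.147), Irf7 (0.63, adjusted p 0.130), Irf1 (0.505, adjusted p 0.182) and Ifi35 (0.365, adjusted p 0.267). Gbp2 has this opposite direction too, which makes 7 of 38 members, beside 1362 of all 22206 probe sets.

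Because pair means were removed, a sample that stands apart mirrors its sibling, and the deviation belongs to the pair. A single value stood apart from the other 3 in 7 of 141 groups of 4 values examined (4.96%), where chance alone marks about 1 in 20. For Oas3 it was pair 4, with a KO value of 6.83 (the others 7.22 to 7.29) and a WT value of 7.06. For Ifnb1 it was pair 2, with a WT value of 6.29 (the others 6.06 to 6.07), a KO value of 5.85 and a difference of −0.44. For Ifng it was pair 4, with a KO value of 5.29 (the others 5.07 to 5.09) and a difference of 0.25 against −0.21 to −0.15. For Nfkbia it was pair 3, with a KO value of 7.72 (the others 6.65 to 6.82), a WT value of 9.01 and a difference of −1.29.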

How the results depend on the processing

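Over the settings tried, the count of called members moved from 9 to 25 with no replicate block, 14 with a random block for the pair, 1 with sex and 0 with RNA integrity added, 17 at an adjusted p under 0.1, and 0 with pairs 1 and 2 alone or pairs 3 and 4 alone (31 and 14 at an unadjusted p under 0.05, beside 5278 and 4144 of all 22206 probe sets). For type I genes these counts were 18, 12, 1, 0, 14, 0 and 0, and for the GTPases, with 0 in the reported fit, 7 with no block, 2 with a random block, 3 at an adjusted p under 0.1 and 1 after housekeeping centring. Of the members called, 24 were higher and 1 lower with no block, 13 and 1 with a random block, and 16 and 1 at an adjusted p under 0.1. The lower one was Cmpk2 each time. Without 1 pair, 0 to 1 members, 0 to 1 type I genes and 0 to 0 GTPases were called. Of the 9 called members, both filters on low values kept 9. Quantile normalization, housekeeping and epithelial centring each kept 7 (Parp14 and Dtx3l lost), and a trended, robust variance kept 8 (Ifit2 lost). Housekeeping centring added Zbp1, Irgm2 and, as lower, Cmpk2, which made 10 called. The trended, robust variance added Zbp1 and, as lower, Cmpk2, which also made 10. Over all probe sets the 1301 calls became 7648 with no replicate block, 2018 with a random block, 464 with sex, 364 with RNA integrity, 5500 with housekeeping centring, 1997 with a trended, robust variance, 3304 at an adjusted p under 0.1, 0 and 26 in pairs 1 and 2 or 3 and 4 alone, and 145 to 459 without 1 pair. The 108 interaction calls became 163 with quantile normalization, 318 with epithelial centring, 488 with a trended, robust variance, 366 at an adjusted p under 0.1 and 0 to 0 without 1 pair; for members, settings added after seeing the data gave 1 with housekeeping and 7 with epithelial centring, 13 with a trended, robust variance, 7 at an adjusted p under 0.1 and 0 to 0 without 1 pair. Without 1 pair the member median ran from 0.28 to 0.43 and type I minus GTPase from −0.14 to 0.01. Members with larger differences in pairs 1 and 2 then numbered 33 to 34. That count is no check of stability, since dropping a pair cannot bring it below the 32 of the full set. Irf7 turned to −0.05 in pairs 3 and 4 alone. Over the 17 settings other than the reported one, adjusted p ran from 0.00023 to 0.20 for Stat2. Leaving out a pair, or adding a term for sex or RNA integrity, leaves fewer degrees of freedom. With sex added the differences of Stat2 (0.465), Ifit1 (0.6425) and Oas2 (0.705) stayed as in the reported fit. With RNA integrity added they were 0.478, 0.635 and 0.676. Causes of the shifts were not tested. Differences correlated more between pairs 1 and 2 (r = 0.682, across probe sets) and pairs 3 and 4 (0.673) than across (0.346 to 0.42), so the 4 pairs may not be independent and p-values may be too small.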
